A study of Saccharomyces cerevisiae with 25 samples.

Results

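The pentose phosphate pathway isoenzymes of budding yeast were followed during phosphate starvation. The set comprised 10 genes chosen by name, ZWF1, SOL3, SOL4, GND1, GND2, TKL1, TKL2, TAL1, NQM1 and RPE1, out of 6650 named genes in the deposited expression matrix, and all 10 were found there. Of these, 4 are minor isoenzymes (SOL4, GND2, TKL2 and NQM1), 4 are their major partners (SOL3, GND1, TKL1 and TAL1), and ZWF1 and RPE1 have no second copy in the set. The comparison asked how the minor and the major copies moved against each other while the cells stayed without phosphate.

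The cells were BY4741, a haploid laboratory strain of mating type a labelled wild type; as background, the strain lacks HIS3, LEU2, MET17 and URA3, in every library here. Cells held in medium without phosphate (no Pi) were sampled at 24 times, from 15 to 360 min in steps of 15 min, and the baseline was 1 library from cells grown overnight in high phosphate, given here as 0 min. There was 1 library for each time and no repeat culture, so 6 windows of 4 neighbouring times stood in for replicates. The p-values of the window fits therefore measure the spread between successive libraries of a single course, with true change inside a window counted as spread. The permutation test of the pair ratios treats these time-ordered libraries as exchangeable, so drift along the course alone can give a small p. The spline test measures scatter about a smooth curve. No p-value here measures the spread between cultures. The late window was 315 to 360 min and the early window 15 to 60 min. STE2, a receptor made by cells of mating type a, was listed in all 25 libraries, and the 4 deleted genes were listed in none. Of genes of the other mating type, MF(ALPHA)2 was listed in none, MF(ALPHA)1 in 6 libraries and SAG1 in 17, at no more than 5.07 log2 RPM, against 8.69 to 9.22 for STE2.

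Values are log2 RPM, the log2 of reads scaled to a sum of 1000000 in each library. They are shares of the library, so a lower share and less RNA of that gene per cell cannot be told apart. Recovered depth ran from 209394 to 1737019 reads per library. A gene was listed only from 10 reads up, and counting alone gives a log2 SD of 0.46 there, so a gene that was not listed can lie anywhere below that floor. The 120 min library stood apart, with the fewest reads and 3261 genes listed, against 4325 to 5392 in the other 24. Of the members, 8 were listed in all 25 libraries, NQM1 in 24 (not at 120 min) and TKL2 in 21 (not at 90, 105, 120 and 180 min).

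The pathway runs beside glycolysis and starts from glucose 6-phosphate. Its oxidative branch makes NADPH, the reducing power for biosynthesis and for defence against oxidants, and releases carbon dioxide. Its non-oxidative branch reshuffles sugar phosphates, supplies ribose 5-phosphate for nucleotides and erythrose 4-phosphate for aromatic amino acids, and returns carbon to glycolysis. In yeast several steps have a pair of gene copies, a major copy that carries most of the activity in growing cells on glucose and a minor copy that is low there.

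Because the copies are related, the sequences bear on whether reads could be shared between them. GND2 and GND1, both 6-phosphogluconate dehydrogenases, were the closest pair, with 87.8% identical residues in a global alignment, and their longest run of identical coding bases was 20. That run is shown in capitals within 60 bases of each coding sequence of build R64 (RefSeq), GND2 at chrVII:1004649-1004708 on the + strand and GND1 at chrVIII:470976-471035 on the + strand, and 10 of the 60 bases differ.
GND2: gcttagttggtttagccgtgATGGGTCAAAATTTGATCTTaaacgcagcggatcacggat
GND1: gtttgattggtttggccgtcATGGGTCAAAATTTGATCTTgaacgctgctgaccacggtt

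TKL2 and TKL1 shared 71.4% of residues and at most 17 bases in a row, NQM1 and TAL1 68.1% and 17 bases, and SOL4 and SOL3 47.7% and 8 bases. No stretch of 25, 36 or 50 bases of a minor copy occurred unchanged in its major partner. With up to 2 mismatches, 1.87% of the 36-base stretches of GND2 matched GND1, none of the other minor copies had such a match, and no 50-base stretch did in any pair. The sources used here give neither the read length nor how reads with several matches were treated. None of the 10 genes overlaps another annotated gene.

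Promoters were searched for short sequences bound by factors of the starvation response. The stress response element, AGGGG or CCCCT on the other strand, is bound by the general stress factors Msn2 and Msn4. In the 500 bases before the start codon ZWF1 had 5 matches, NQM1 had 3, GND2 had 2, SOL3, SOL4, TKL1, TKL2 and TAL1 had 1 each, and GND1 and RPE1 had none. Of 6000 promoters searched in the same way, 34.1% had at least 1 match, 8.13% at least 2 and 1.83% at least 3. The promoters of 3 minor copies whose levels rose, GND2, SOL4 and NQM1, are shown with that of ZWF1, which had the most matches in the set and was lower in the late window than in the early one. Each line gives 300 bases, the first of them 400 bases before the start codon, 5′ to 3′ on the coding strand, with AGGGG and CCCCT in capitals. The positions are chrVII:1004224-1004523 (+) for GND2, whose first bases belong to a threonine tRNA gene, chrVII:985572-985871 (+) for SOL4, whose first bases are the end of CPD1, chrVII:581537-581836 (-) for NQM1 and chrXIV:198044-198343 (-) for ZWF1.
GND2: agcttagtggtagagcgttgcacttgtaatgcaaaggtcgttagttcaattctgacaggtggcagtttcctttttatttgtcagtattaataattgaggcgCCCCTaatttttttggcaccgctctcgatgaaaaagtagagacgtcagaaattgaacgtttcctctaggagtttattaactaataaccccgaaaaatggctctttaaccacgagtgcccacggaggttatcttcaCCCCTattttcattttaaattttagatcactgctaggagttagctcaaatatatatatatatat
SOL4: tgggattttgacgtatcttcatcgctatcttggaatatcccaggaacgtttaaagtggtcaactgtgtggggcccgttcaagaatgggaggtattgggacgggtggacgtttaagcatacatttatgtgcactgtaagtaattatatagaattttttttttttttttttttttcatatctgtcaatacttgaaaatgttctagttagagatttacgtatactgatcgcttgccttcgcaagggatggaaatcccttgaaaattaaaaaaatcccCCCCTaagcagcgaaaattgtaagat
NQM1: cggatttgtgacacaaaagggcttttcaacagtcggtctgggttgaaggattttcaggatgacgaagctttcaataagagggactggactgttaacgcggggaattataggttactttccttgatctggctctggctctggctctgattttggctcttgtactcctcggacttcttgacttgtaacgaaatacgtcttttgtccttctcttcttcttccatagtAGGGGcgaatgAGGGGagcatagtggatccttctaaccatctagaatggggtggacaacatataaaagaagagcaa
ZWF1: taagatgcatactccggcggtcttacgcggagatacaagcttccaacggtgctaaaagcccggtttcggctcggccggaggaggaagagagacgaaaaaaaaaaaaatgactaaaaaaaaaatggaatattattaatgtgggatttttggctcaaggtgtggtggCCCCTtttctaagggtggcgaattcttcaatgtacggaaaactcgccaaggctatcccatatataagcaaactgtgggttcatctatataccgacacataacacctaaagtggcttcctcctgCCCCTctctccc

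The matches lay at 299 to 295 and 164 to 160 bases before the GND2 start codon and at 126 to 122 bases before that of SOL4. In NQM1 the matches inside the printed stretch began 176 and 165 bases before the start codon, and the remaining match lay farther out. The printed stretch of ZWF1 holds 2 of its 5 matches. The others lay nearer the start codon, at 87 to 83, 75 to 71 and 68 to 64 bases before it. In the 500 bases of each member, neither TAGGGAT (the post-diauxic shift element, in 2.85% of promoters on either strand) nor CACGTG (the core of Pho4 sites, in 6.23%) was found, and TTACTAA (a Yap1 element, in 11.8% on either strand) occurred in TKL2 alone. These are matches of letters and say nothing about binding.

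In the late window, set against the early window, the minor isoenzymes GND2, SOL4 and NQM1 rose by 15.8-fold, 4.92-fold and 5.97-fold, and TKL2, tested with a looser filter, rose by 16.5-fold. The major isoenzymes GND1, SOL3 and TKL1 fell, TAL1 and RPE1 did not pass the test, and ZWF1 passed it narrowly in the downward direction. In limma with Benjamini-Hochberg adjustment over all genes tested, 3 of the 9 members tested were higher and 4 were lower, where 37.8% of the 4535 genes tested were higher and 10.0% were lower. With every library centred on its median gene, which lay 0.34 to 0.44 log2 units above high phosphate in the late window, 3 members were higher and 5 lower, and of all genes 873 were higher and 973 lower in place of 1713 and 454. The median change of the 9 members was -0.20 log2 units and that of all genes tested was 0.33, or -0.56 and -0.03 after centring.

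**Figure D1:**
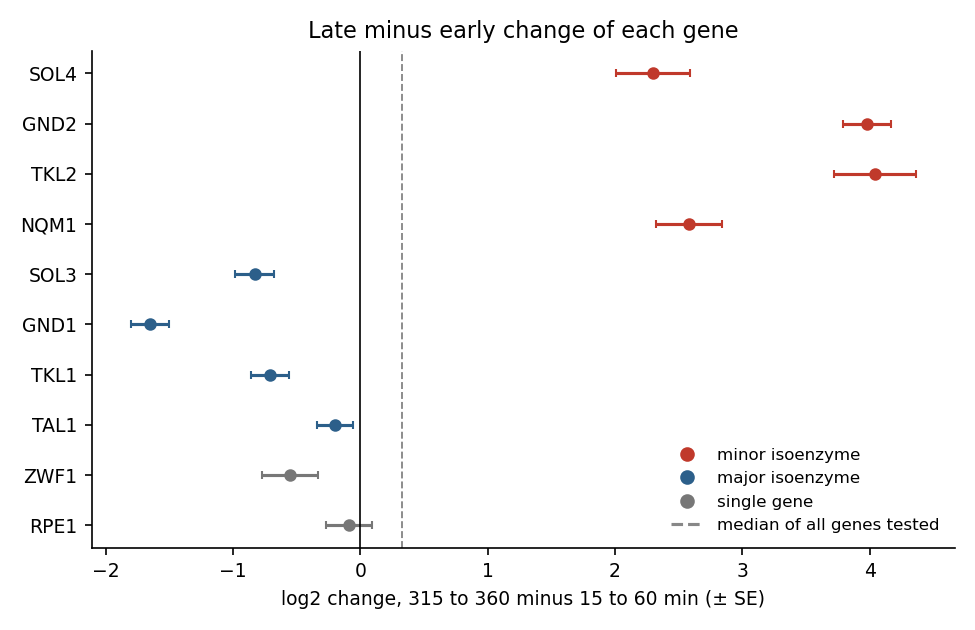
Change in log2 RPM of the 10 genes between the late (315 to 360 min) and early (15 to 60 min) windows, with the SE from limma and 4 libraries in each window. The 4 minor isoenzymes lie at 2.30 or above, the 4 major ones at -0.20 or below, and the dashed line is the median of all genes tested, 0.33.

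The oxidative branch begins with ZWF1 (chromosome XIV, 196426 to 197943, - strand), glucose-6-phosphate dehydrogenase, the step that commits glucose 6-phosphate to the pathway. ZWF1 had 7.60, 7.29, 6.88 and 7.23 log2 RPM at 315, 330, 345 and 360 min, against 7.53, 7.90, 7.98 and 7.77 at 15, 30, 45 and 60 min. The windows overlapped, since the 315 min value lay above the 15 min value. The change was -0.55 log2 units (SE 0.22, limma adjusted p = 0.0436), and it kept an adjusted p under 0.05 in 2 of the 8 fits that left out 1 of these libraries. ZWF1 stood at 7.14 in high phosphate, below each of the early libraries, and its 120 min value of 6.16 rested on 15 reads.

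The next step, the hydrolysis of 6-phosphogluconolactone, is carried out by SOL3 (chromosome VIII, 423724 to 424473, + strand) and SOL4 (chromosome VII, 985972 to 986739, + strand). SOL4 had 6.66, 7.31, 7.58 and 7.74 log2 RPM in the late window, against 4.92, 4.76, 5.30 and 5.12 in the early window. Each late value lay above each early value. The rise was 2.30 log2 units (SE 0.29, limma adjusted p = 3.23e-07).

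SOL4 stood apart from its high-phosphate level already at 15 min. It had 3.30 log2 RPM in high phosphate, from 14 reads with a counting SD of 0.39, and it lay 1.47 to 2.0 log2 units above that in the 4 libraries of the early window. The middle windows held 5.09, 4.98, 5.56 and 5.72 at 75 to 120 min, 7.08, 7.12, 6.86 and 5.71 at 135 to 180 min, 7.33, 6.61, 7.51 and 6.73 at 195 to 240 min, and 7.86, 7.73, 7.70 and 6.75 at 255 to 300 min. The libraries at 180 and 300 min lay below the other 3 of their windows, without overlap with them in level.

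SOL3 moved the other way and by less. It had 6.64, 7.22, 7.03 and 6.51 log2 RPM in the late window, against 7.60, 7.80, 7.76 and 7.57 in the early window. The windows did not overlap, and the change was -0.83 log2 units (SE 0.15, limma adjusted p = 2.67e-05). Its late libraries lay 0.08 to 0.80 below its high-phosphate level of 7.30.

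The last oxidative step, which yields ribulose 5-phosphate and further NADPH, is shared by GND1 (chromosome VIII, 470960 to 472429, + strand) and GND2 (chromosome VII, 1004624 to 1006102, + strand). GND2 had 8.95, 9.14, 9.43 and 9.54 log2 RPM in the late window, against 4.58, 5.62, 5.47 and 5.46 in the early window. This was a rise of 3.98 log2 units (SE 0.19, limma adjusted p = 9.34e-17), and GND2 ranked at position 14 from the top among 5248 genes by its late-minus-early change. High phosphate gave 5.32, inside the range of the early libraries.

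The GND2 course had a step in it. The libraries at 75, 90, 105 and 120 min held 5.20, 5.98, 5.39 and 6.06 log2 RPM, and those at 135, 150, 165 and 180 min held 7.75, 8.17, 7.98 and 7.87, with no overlap. The following windows climbed by smaller amounts, with 8.46, 8.74, 8.63 and 8.70 at 195 to 240 min and 9.0, 8.76, 9.19 and 8.93 at 255 to 300 min. The value at 345 min rested on 1035 reads, the most of any GND2 value, and that at 120 min on 14.

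GND1 declined over the same time. It had 7.42, 7.57, 7.13 and 7.19 log2 RPM in the late window, against 9.15, 9.02, 9.03 and 8.72 in the early window, without overlap. The change was -1.65 log2 units (SE 0.15, limma adjusted p = 3.94e-11), which leaves 0.318 of the early level. GND1 had the lowest late-minus-early change of the 10 genes, at position 5096 of 5248. The late libraries lay 1.14 to 1.57 log2 units below the high-phosphate level of 8.71.

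In the non-oxidative branch RPE1 (chromosome X, 190374 to 191090, - strand) converts ribulose 5-phosphate to xylulose 5-phosphate. It had 7.01, 7.12, 7.06 and 6.84 log2 RPM in the late window, against 7.29, 7.09, 6.93 and 7.07 in the early window. These ranges overlapped, and the change of -0.09 (SE 0.18, limma adjusted p = 0.706) did not pass. RPE1 stood at 7.64 in high phosphate, above each library of both windows.

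Transketolase, which moves 2-carbon units between sugar phosphates, is encoded by TKL1 (chromosome XVI, 692796 to 694838, - strand) and TKL2 (chromosome II, 474392 to 476437, - strand). TKL2 had 7.25, 7.48, 8.0 and 8.79 log2 RPM in the late window, against 3.13, 3.52, 4.10 and 4.59 in the early window. Its listed values stayed low for long, at 3.90 in 1 of 4 libraries at 75 to 120 min. At 135 to 180 min it was listed in 3 of 4, at 4.92, 3.92 and 4.42. A missing value does not show a low level in a shallow library, since 11 reads of SOL4 gave 5.72 at 120 min. The libraries at 90 and 105 min were deeper, with 852781 and 1148249 reads against 209394 at 120 min. There fewer than 10 reads sets a lower ceiling, so the 1 listed value at 75 to 120 min can overstate that window. TKL2 then held 5.30, 4.74, 5.22 and 5.11 at 195 to 240 min and 5.74, 5.95, 6.82 and 6.27 at 255 to 300 min.

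Because of the missing values TKL2 did not meet the filter of 3 values in each window. In a limma fit that asked for at least 1 value in each window compared, it rose by 4.04 log2 units (SE 0.32, adjusted p = 5.91e-11), where 35.9% of 5248 genes were higher and 8.84% lower. Its rank there, 11 from the top, was the highest of the 10 genes. The early values rested on 11 to 21 reads, the late values on 95 to 382.

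TKL1 had 8.39, 8.45, 8.59 and 8.05 log2 RPM in the late window, against 9.14, 9.04, 9.08 and 9.05 in the early window. The late values were all lower, by 0.71 on average (SE 0.15, limma adjusted p = 0.000212). High phosphate gave 9.20, above every later library.

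Transaldolase, which moves 3-carbon units, is encoded by TAL1 (chromosome XII, 836350 to 837357, - strand), and NQM1 (chromosome VII, 580435 to 581436, - strand) is its paralog. NQM1 had 6.41, 6.94, 6.95 and 7.86 log2 RPM in the late window, against 4.25, 4.18, 4.92 and 4.50 in the early window. The rise was 2.58 log2 units (SE 0.26, limma adjusted p = 5.13e-10), with no overlap. The windows between held 4.45, 4.40 and 4.26 at 75 to 105 min, 5.0, 4.43, 5.07 and 5.15 at 135 to 180 min, 5.08, 5.20, 4.90 and 5.34 at 195 to 240 min, and 5.56, 5.82, 6.27 and 5.33 at 255 to 300 min. NQM1 thus lay within about 1 log2 unit of its early range until 240 min.

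TAL1 was the flattest of the major copies. It had 8.96, 9.01, 8.73 and 8.76 log2 RPM in the late window, against 8.93, 9.02, 9.19 and 9.12 in the early window, and the ranges overlapped. The change of -0.20 (SE 0.14, limma adjusted p = 0.244) did not pass, and it was 0.07 (limma adjusted p = 0.504) between 165 to 360 and 15 to 105 min. Centred on the median gene it was -0.56 (limma adjusted p = 0.00541), so whether TAL1 counts as lower depends on that scaling.

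**Figure D2:**
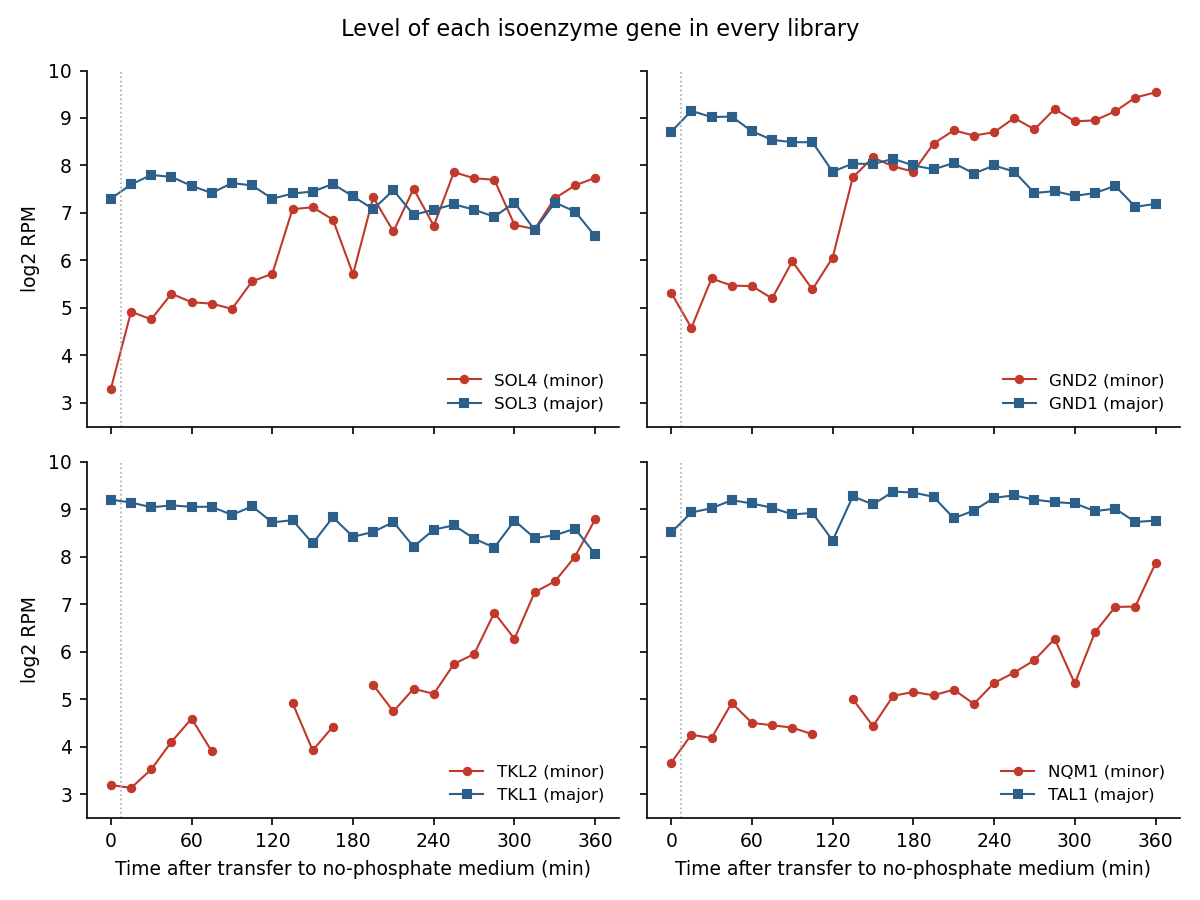
Level in log2 RPM of each isoenzyme pair against time in no-phosphate medium, 1 point for each library, minor copies in red and major copies in blue; the dotted line parts the high-phosphate library at 0 min from the rest, and gaps are libraries in which a gene was not listed. GND2 steps up between 120 and 135 min, TKL2 and NQM1 climb most after 240 min, and GND1, SOL3 and TKL1 slope downward.

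The ratio of the copies inside each library does not depend on how libraries were scaled. The mean log2 ratio of GND2 to GND1 was 1.94 ± 0.45 in the late window and -3.70 ± 0.60 in the early window (SD, n = 4 each), a 49.7-fold shift. The ratio of TKL2 to TKL1 was -0.49 ± 0.85 late and -5.24 ± 0.67 early, a 27.0-fold shift, that of SOL4 to SOL3 was 0.47 ± 0.56 late and -2.66 ± 0.27 early, an 8.77-fold shift, and that of NQM1 to TAL1 was -1.83 ± 0.70 late and -4.60 ± 0.24 early, a 6.85-fold shift. In all 4 pairs each of the 4 late ratios exceeded each of the 4 early ratios. The two-sided exact permutation test gave p = 0.0286 for each pair, which is the smallest that 4 against 4 libraries allow, and the same value after adjustment over the 4 pairs.

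A wider comparison, of 165 to 360 min with 15 to 105 min, gave changes of 4.53, 2.97, 2.57 and 1.35 log2 units for GND2/GND1, TKL2/TKL1, SOL4/SOL3 and NQM1/TAL1. The adjusted p-values of its permutation test ran from 3.44e-05 to 0.000233, with 14 against 7 libraries, or 13 against 5 for TKL2/TKL1. There the late ratios of NQM1 to TAL1 overlapped the early ones, and those of the other 3 pairs did not. Without overlap, p before adjustment is the smallest that the library numbers allow. In this permutation test it was 1.72e-05 for GND2/GND1 and SOL4/SOL3 and 0.000233 for TKL2/TKL1. For these pairs the size of p follows the number of libraries and not the size of the shift.

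Per kb of coding length, GND2 supplied 78.8% ± 5.1 (SD, n = 4) of the pair's reads in the late window, and 7.4% ± 2.4 in the early window. Taken in time order, its share was 14.1% at 75 to 120 min, 47.9% at 135 to 180 min, 61.5% at 195 to 240 min and 72.8% at 255 to 300 min. At 360 min it reached 83.5%. GND2 was the larger of the pair per kb in each library from 195 min on.

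SOL4 supplied 57.3% ± 9.1 of its pair per kb in the late window, and 13.5% ± 2.1 in the early window. From 195 min on the shares of single libraries lay on both sides of 50%, between 34.9% and 69.6%. In high phosphate SOL4 made up 5.7% of its pair, so its share had already grown by the early window.

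TKL2 supplied 41.8% ± 14.2 of its pair per kb in the late window, and 2.8% ± 1.2 in the early window. The late libraries were spread widely, with 31.2%, 33.8%, 39.9% and 62.5% at 315, 330, 345 and 360 min, and TKL2 passed TKL1 in the 360 min library alone. NQM1 supplied 22.9% ± 8.8 of its pair in the late window, and 4.0% ± 0.7 in the early window. Its late libraries gave 14.6%, 19.3%, 22.6% and 35.2%, so NQM1 stayed the smaller copy throughout.

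**Figure D3:**
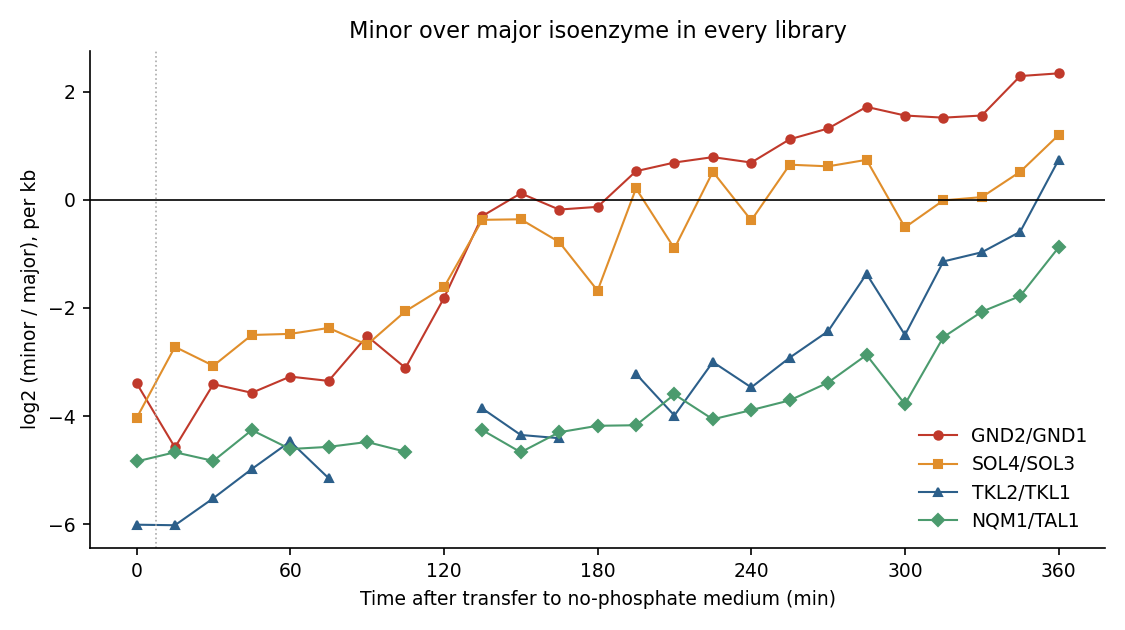
Log2 ratio of minor to major copy per kb of coding length in each library, against time in no-phosphate medium. Values above 0 mean that the minor copy was the more abundant; GND2/GND1 stays above 0 from 195 min, SOL4/SOL3 crosses 0 repeatedly, TKL2/TKL1 crosses it at 360 min and NQM1/TAL1 stays below it.

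The summed level of each pair moved less than its minor copy. GND1 and GND2 together held 785.2 ± 96.7 RPM in the late window and 548.4 ± 56.5 RPM in the early window. SOL3 and SOL4 together held 283.3 ± 55.6 RPM late and 238.6 ± 16.9 RPM early. TKL1 and TKL2 together held 590.8 ± 100.6 RPM late and 556.5 ± 14.6 RPM early, and TAL1 and NQM1 together 609.8 ± 52.7 RPM late and 559.6 ± 46.9 RPM early. The late and early sums overlapped in the SOL and TAL pairs and in the TKL pair, and not in the GND pair, whose lowest late library held 666.4 RPM and whose highest early library held 592.2 RPM.

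All 10 genes together held 2552.6 ± 233.7 RPM in the late window and 2264.2 ± 79.6 RPM in the early window (SD, n = 4 each), with overlap between single libraries. The minor copies held 1187.4 ± 344.0 RPM late and 111.1 ± 22.2 RPM early, and the major copies 1081.7 ± 112.1 RPM late and 1792.1 ± 69.3 RPM early. The minor copies thus made up 45.9% ± 9.3 of the 10 genes' reads late and 4.9% ± 0.9 early. They made up 57.6% at 360 min, and 3.7% in high phosphate.

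**Figure D4:**
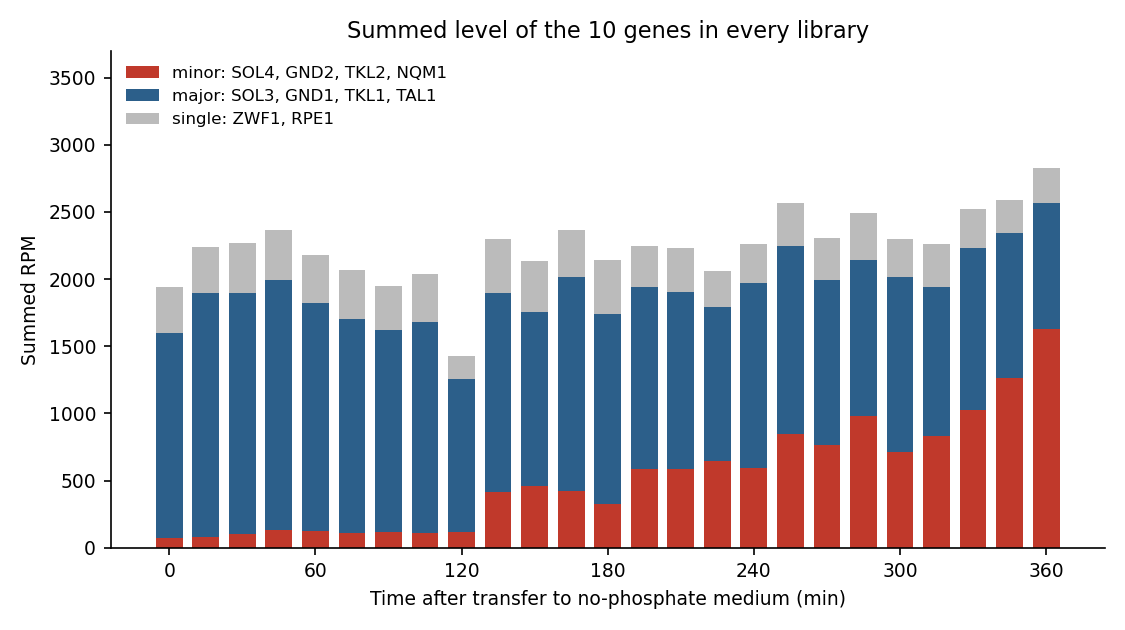
Summed RPM of the 10 genes in each library, stacked as minor copies, major copies and the genes without a second copy (ZWF1 and RPE1); a gene that was not listed counts as 0. The total stays between 1427.9 RPM (120 min) and 2830.5 RPM (360 min), while the minor copies grow to 57.6% of it at 360 min.

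The order of the genes by level also changed. Per kb of coding length the mean levels in the late window were 8.86 log2 RPM per kb for TAL1, 8.70 for GND2, 7.70 for SOL4, 7.49 for RPE1, 7.34 for TKL1, 7.26 for SOL3, 7.04 for NQM1, 6.85 for TKL2, 6.77 for GND1 and 6.65 for ZWF1. In that order GND2 and SOL4 were the neighbours whose libraries did not overlap, and each other pair of neighbours did. In the early window the order was TAL1 at 9.05, GND1 at 8.42, SOL3 at 8.10, TKL1 at 8.05, RPE1 at 7.58, ZWF1 at 7.19, SOL4 at 5.40, GND2 at 4.72, NQM1 at 4.46 and TKL2 at 2.80. The overlapping neighbours there were GND1 with SOL3, SOL3 with TKL1, and GND2 with NQM1. The minor copies filled the 4 lowest places early, and GND2 and SOL4 held the places after TAL1 late.

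Successive windows show when each gene moved. At 75 to 120 min against 15 to 60 min, GND1 was lower by 0.63 on average (SE 0.15, limma adjusted p = 0.0287), where 0.309% of all genes tested were lower and 0.397% higher. Without the 120 min library the change was -0.47 (limma adjusted p = 0.149), and 4 of 8 fits that left out 1 library kept the call. No other member passed in that contrast. TKL2, in the fit with the looser filter, changed by 0.07 (limma adjusted p = 0.98), where 0.303% of genes were higher and 0.246% lower. That value rests on the single library at 75 to 120 min in which TKL2 was listed.

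At 135 to 180 min against 75 to 120 min, GND2 rose by 2.28 log2 units (SE 0.19, limma adjusted p = 5.37e-10), SOL4 by 1.36 (SE 0.29, adjusted p = 0.00106) and TAL1 by 0.48 (SE 0.14, adjusted p = 0.0111), where 19.8% of all genes were higher and 6.77% lower. Without the 120 min library the changes were 2.42, 1.48 and 0.32, each with an adjusted p under 0.05. The median gene lay 0.033 to 0.081 log2 units above high phosphate at 75 to 105 min and 0.318 at 120 min. At 135 to 180 min it lay 0.256 to 0.387 above. Successive contrasts were not run after centring on the median gene, so whether the TAL1 call depends on that scaling was not tested. NQM1 changed by 0.54 between the same windows (limma adjusted p = 0.149). TKL2 changed by 0.52 (SE 0.52, limma adjusted p = 0.515, looser filter, where 18.1% of genes were higher and 5.83% lower), against a single listed library at 75 to 120 min.

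No member passed in either of the following contrasts. At 195 to 240 against 135 to 180 min 0.198% of all genes were higher and 0.684% lower, and TKL2 changed by 0.67 (limma adjusted p = 0.428, looser filter, with 0.191% of genes higher and 0.610% lower). At 255 to 300 against 195 to 240 min 0.0882% were higher and 0.0662% lower, and TKL2 changed by 1.10 (limma adjusted p = 0.192, looser filter, with 0.152% higher and 0.0569% lower). At 315 to 360 against 255 to 300 min, NQM1 rose by 1.30 log2 units (SE 0.26, limma adjusted p = 0.0241), where 0.0662% of all genes were higher and 0.0221% lower. In the same contrast TKL2 rose by 1.68 (SE 0.32, limma adjusted p = 0.0207, looser filter), where 0.0941% of genes were higher and 0.0188% lower. Without the 360 min library these changes were 1.02 (adjusted p = 0.224) for NQM1 and 1.38 (adjusted p = 0.194) for TKL2 in limma. The calls held in 2 of 8 and 3 of 8 fits that left out 1 library.

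The midpoint, at which a smoothed log2 course had covered 50% of the distance between high phosphate and its farthest value, was 107 min for SOL4, 137 min for GND2, 253 min for NQM1 and 260 min for TKL2. Leaving out 1 no-phosphate library at a time moved these to 97.2 to 107 min, 135 to 150 min, 242 to 259 min and 247 to 262 min. The high-phosphate library, from which every midpoint starts, was never left out. These ranges therefore do not cover its error, and SOL4 had 14 reads there (counting SD 0.39). The ranges of SOL4 and GND2, of the oxidative branch, lay apart from those of NQM1 and TKL2, of the non-oxidative branch. The difference in timing between genes was not tested, and on the linear scale all 4 midpoints were later, at 138, 206, 322 and 326 min for SOL4, GND2, NQM1 and TKL2. The decline of GND1 gave 210 min but moved between 129 and 243 min when 1 library was left out.

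A spline of time, which uses no windows, passed for 6 of the 9 members tested, where 58.8% of all genes passed. The limma adjusted p was 1.57e-15 for GND2, 1.95e-13 for GND1, 4.57e-12 for NQM1, 1.13e-06 for SOL4, 5.78e-05 for SOL3 and 6.68e-05 for TKL1. It was 0.195 for TAL1, 0.336 for ZWF1 and 0.801 for RPE1.

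Against the single high-phosphate library no test was possible, and a gene was counted if a window averaged 1 log2 unit or more away from it and its 4 libraries were all on that side. SOL4 was the member so counted as higher at 15 to 60 min, of 10 compared (background 2.47% higher, 0.528% lower), and at 75 to 120 min, of 8 compared (4.79% and 0.402%). At 135 to 180 min SOL4, GND2 and NQM1 were counted, of 9 compared (13.9% and 6.85%), but NQM1 was not after centring on the median gene. From 195 min on all 4 minor copies were counted as higher in each window, of 10 compared, where the share of all genes was 18.9% at 195 to 240 min, 19.1% at 255 to 300 min and 21.9% at 315 to 360 min. GND1 was counted as lower at 255 to 300 and at 315 to 360 min, with backgrounds of 6.19% and 6.18%, and no member was lower at 195 to 240 min (6.10%). After centring on the median gene GND1, TKL1 and RPE1 were counted as lower at 195 to 240 min, where 438 of 4231 genes were. With the 15 min library as the baseline, and left out of its own window, no member was counted as higher at 15 to 60 min. GND2 in place of SOL4 was counted at 75 to 120 min, where 52 of 3236 genes were. Both early calls of SOL4 therefore rest on the high-phosphate library. GND2 had 4.58 log2 RPM at 15 min, from 30 reads, against 5.46 to 5.62 at 30 to 60 min. Its mean at 75 to 120 min lay 0.34 above high phosphate. With the 15 min baseline NQM1 was not counted at 135 to 180 or at 195 to 240 min either.

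Across libraries the courses of TKL2 and NQM1 ran closest together among the members, with a Pearson r of 0.97 over 21 libraries, and those of SOL4 and GND2 had 0.90 over 25. GND1 and GND2 ran in opposite directions, with -0.90 over 25 libraries. These values describe libraries that share 1 course and its drift over time, and carry no test. SOL4 and GND2 lie on chromosome VII, 17884 bases apart with 7 protein-coding genes between them, and their major partners SOL3 and GND1 lie on chromosome VIII, 46486 bases apart with 20 genes between them.

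Among 3101 genes listed in every library, outside the set, the closest course to GND2 was that of PRC1, vacuolar carboxypeptidase Y (r = 0.984, 25 libraries), followed by HPF1, a cell wall mannoprotein, and WTM1. YBR139W, DCS2 and YBR056W were closest to SOL4, with r from 0.959 to 0.960. TKL2 and NQM1 had the same 3 nearest genes, SIP18, a hydrophilin of salt and drying stress, its chromosomal neighbour YMR175W-A and YRO2, with r of 0.969 to 0.974 over 21 libraries for TKL2 and 0.940 to 0.956 over 24 for NQM1. GND1 ran closest to SAH1 and SAM1, enzymes of the methyl cycle, and to the NADPH-dependent alcohol dehydrogenase ADH6, with r of 0.934 to 0.946. SOL3 had TOM5, ADH6 and SAM1 at 0.824 to 0.828, TKL1 had MIS1, ASP1 and APT1 at 0.880 to 0.898, and TAL1 had actin (ACT1), SBA1 and UBA1 at 0.822 to 0.869.

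Of 14 other genes of the pathway and its outlets, 10 were tested between the late and early windows. Of these 10, 4 were higher and 2 lower, where 37.8% of all genes tested were higher and 10.0% lower. Their median change was 0.30 log2 units, close to the 0.33 of all genes. RKI1, the isomerase that makes ribose 5-phosphate beside RPE1, averaged 6.06 log2 RPM late and 7.02 early and fell by 0.95 on the log2 scale (SE 0.22, limma adjusted p = 0.000524). GRE3, an NADPH-dependent aldose reductase, rose by 1.07 (limma adjusted p = 1.11e-06), and YDR248C, PRS2 and PRS4 by 0.75, 0.48 and 0.76. PRS2 and PRS4 encode subunits of ribose-phosphate pyrophosphokinase, which takes ribose 5-phosphate into nucleotides, and PRS1, another subunit gene, was lower (-0.39, limma adjusted p = 0.0215). After centring on the median gene 2 were higher, GRE3 (0.72) and PRS4 (0.41), and 3 lower, RKI1, PRS1 and SHB17, which is listed as YKR043C. Of all 4535 genes tested, 873 were then higher and 973 lower. XKS1, xylulokinase, was tested with the looser filter alone and rose by 0.98 (limma adjusted p = 0.000818), whereas SOL1 and SOL2 did not pass there.

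Of 8 other sources of NADPH, 4 were tested, 2 were higher and 1 lower, where 37.8% of all genes were higher and 10.0% lower. After centring 1 was higher and 1 lower, where 873 of all 4535 genes tested were higher and 973 lower. IDP1, mitochondrial isocitrate dehydrogenase, had a change of 0.66 (limma adjusted p = 0.000278) that did not pass after centring (0.30, adjusted p = 0.107). UTR1, an NAD kinase, rose by 0.95 (limma adjusted p = 0.000254), or 0.59 after centring. With the looser filter alone IDP2 and IDP3, the cytosolic and peroxisomal isocitrate dehydrogenases, rose by 1.19 and 1.0 (limma adjusted p = 0.00244 and 0.0274), and POS5 did not pass. ALD6, cytosolic aldehyde dehydrogenase, averaged 10.63 log2 RPM late and 11.33 early and fell by 0.70 (limma adjusted p = 0.000244). Of 6 regulators RPH1 and YAP1 were tested and both passed as higher, at 1.42 and 0.33. Of all genes 37.8% were higher, and their median change was 0.33. After centring RPH1 stood at 1.06 (limma adjusted p = 0.00134), and YAP1 at -0.03 (adjusted p = 0.899) no longer passed. MSN4 was tested with the looser filter alone and rose by 2.13 (limma adjusted p = 1.92e-07), whereas MSN2 changed by -0.13 (limma adjusted p = 0.834) there and STB5 and GIS1 did not pass.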

How the data were processed

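RNA of 25 yeast libraries (1 in high phosphate, 24 without) was sequenced from cDNA on an Illumina instrument, per the labels' protocols. Bowtie and build R64 are named in the submitters' processing notes. The version of Bowtie, the counter, strand and read length were not given in the sources used here. The authors deposited log2 values for 6701 lines, of which 51 name no gene. Taken back to the linear scale they sum to 1000000 in each library (RPM). Taking the smallest value of a library as 10 reads made 96.27% of values under 400 units whole (tolerance 0.01), which gave depth and reads. Recovered reads describe depth, and entered a test only as weights in the alternative with counting weights.

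limma 3.58.1 in R 4.3.3 fitted the means of 6 windows (lmFit, then eBayes with trend and robust) on the log2 scale without a pseudocount, without the high-phosphate library. Genes with at least 3 values in each window (4535) were tested, and 1057 listed genes were not. For TKL2 the filter was 1 value in each window compared. Adjusted p-values are two-sided Benjamini-Hochberg values over all genes tested, with a threshold of 0.05. Ratios within a library were tested with the exact permutation test of scipy 1.17.1. The spline had 4 degrees of freedom, and midpoints used means of 3 neighbouring times. The limma script was tested on simulated data. Sequences and positions came from RefSeq, build R64.

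Alternatives were centring on the median gene, a pseudocount of 1 unit, other filters, eBayes without trend and robust, and counting weights. Other windows, the 15 min library as baseline and leaving out 1 no-phosphate library at a time were also run. All 10 members were named, with fixed lists of other pathway genes, NADPH sources, regulators and glycolytic pairs, and the 3 genes most like each paired member. The members and lists were chosen with earlier results of these data known. Chosen after seeing the data were the looser filter for successive windows, leaving out libraries in that fit and in the successive contrasts, and the search for shared stretches with up to 2 mismatches.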

Additional observations from a re-analysis of the deposited data

Results flagged for a closer look

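In 78 groups of 4 neighbouring libraries (10 members and 4 ratios), 5 held a library far from the other 3 by Dixon's test of the gap over the range. Chance alone flags about 1 group in 20. ZWF1 had 6.16 log2 RPM at 120 min, against 7.49 to 7.69 in the other libraries of its window, and GND1 had 7.87 there, against 8.49 to 8.54. The 120 min library was the shallowest, with 15 reads for ZWF1 and 49 for GND1, and its part in these values was not tested beyond leaving it out. SOL4 had 6.75 log2 RPM at 300 min, against 7.70 to 7.86 at 255 to 285 min, and the log2 ratio of SOL4 to SOL3 was -0.48 there, against 0.65 to 0.77. GND2 had 4.58 log2 RPM at 15 min, against 5.46 to 5.62 at 30 to 60 min.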

How the results depend on the processing

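TAL1, which did not pass, changed sign to 0.07 between 165 to 360 and 15 to 105 min, and no other member or ratio did so under the alternatives run. For the TKL2 change itself these were only the fits with the looser filter that left out 1 library. Of all genes, 873 were higher after centring on the median gene and 1101 with a pseudocount of 1 unit, against 1713, and 973 were lower after centring, against 454, so that lower genes then outnumbered higher ones. Leaving out 1 library gave 1522 to 1604 higher and 396 to 446 lower. ZWF1 no longer passed with a pseudocount (-0.54, limma adjusted p = 0.0843) or without trend and robust (-0.55, adjusted p = 0.0605), and ran from -0.66 to -0.42 with 1 library left out. In limma it passed after centring (-0.90, adjusted p = 0.00986) and with counting weights (-0.56, adjusted p = 0.0081). Between 165 to 360 and 15 to 105 min it passed at -0.30 (limma adjusted p = 0.0115). TAL1 passed after centring (-0.56). With 1 library left out the ratios changed by 2.88 to 3.28 (SOL4/SOL3), 5.34 to 5.78 (GND2/GND1), 4.34 to 5.01 (TKL2/TKL1) and 2.47 to 3.02 (NQM1/TAL1), each with a permutation p of 0.0571 after adjustment, the smallest that 3 against 4 allow.

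Successive changes ran from -0.72 to -0.47 (GND1), 1.38 to 1.89 (TKL2) and 1.02 to 1.51 (NQM1). With the 15 min baseline 0 members were higher at 15 to 60 min, where 32 of 4750 genes were. GND1 alone was lower at 135 to 180 min, where 220 of 4444 genes were, and at 195 to 240 min, where 201 of 4232 were. After centring 3, 2 and 3 members were lower at 195 to 240, 255 to 300 and 315 to 360 min. GND1 and TKL1 were lower in each, and RPE1 in the first and last. Of all genes compared, 438 of 4231, 497 of 4768 and 523 of 4545 were lower. Linear midpoints were 138 (SOL4), 206 (GND2), 326 (TKL2), 322 (NQM1) and 122 min (GND1), and for the ratios 207 (SOL4/SOL3), 267 (GND2/GND1), 332 (TKL2/TKL1) and 328 min (NQM1/TAL1). With 1 library left out GND1 ran from 129 to 243 min, TKL2/TKL1 from 229 to 254 and NQM1/TAL1 from 267 to 305. Where a setting changed a call, the cause was not tested. A single course, 1 library per time and low reads for TKL2, NQM1 and SOL4 early on limit the precision. No paired analysis was possible because the libraries carry no shared replicate numbers.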

Other observations

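Pairs of glycolytic isoenzymes gave a wider view of minor and major copies. The log2 ratio of HXK1 to HXK2, the hexokinases, was 0.51 ± 0.35 in the late window and -1.43 ± 0.63 in the early window (SD, n = 4 each). TDH1/TDH3, the glyceraldehyde-3-phosphate dehydrogenases, had -3.06 ± 0.11 late and -5.96 ± 0.12 early. GPM2/GPM1 had -4.01 ± 0.33 late and -6.28 ± 0.35 early, ENO1/ENO2, the enolases, -2.26 ± 0.17 late and -4.58 ± 0.38 early, and PYK2/CDC19, the pyruvate kinases, -4.52 ± 0.15 late and -5.79 ± 0.26 early. These 5 ratios were 1.28 to 2.90 log2 units higher late than early, against 2.78 to 5.63 for the pentose phosphate pairs. In the single high-phosphate library HXK1/HXK2 stood at -3.54, TDH1/TDH3 at -6.3 and NQM1/TAL1 at -4.85. From that library to the late window HXK1/HXK2 and TDH1/TDH3 rose by more than NQM1/TAL1. GPM2/GPM1, ENO1/ENO2 and PYK2/CDC19 rose by less than NQM1/TAL1, and the other pentose phosphate pairs by more than each of these 5. PDC6 was not listed in the early window. Neither the glycolytic ratios nor the difference between the pathways was tested.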
